A study of Mus musculus with 6 samples.

Results

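The cytosolic ribosomal protein genes were examined in bulk RNA-seq of mouse T cells cultured with macrophage supernatant. They were taken by symbol: a name that starts with Rpl or Rps and a digit, or Rplp0, Rplp1, Rplp2 and Rpsa, restricted to protein-coding genes. Of 392 symbols that this pattern takes, 10 Rps6k kinases, Rps27a, 289 pseudogene symbols and 7 other non-coding entries were left out, which left 85 of 55401 genes. Of these, 52 carry symbols of the large subunit and 33 of the small subunit. A core of 76 genes (46 large, 30 small) encodes the standard proteins of the ribosome, and the other 9 are Rps19bp1, whose product is no ribosomal protein, and the paralogues Rpl3l, Rpl7l1, Rpl10l, Rpl22l1, Rpl36al, Rpl39l, Rps27l and Rps27rt.

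In the NFL group (n = 3), T cells were grown with supernatant of macrophages that had been given neurofilament light chain, an axonal cytoskeleton protein abbreviated NFL, at 5 µg/mL for 24 h. In the control group (n = 3), the macrophages had received none. In both groups the medium held 50% supernatant and 2% serum, the macrophages came from CD11b-selected spleen cells kept in M-CSF at 50 ng/mL for 7 days, and the T cells were selected from spleen with beads against CD8a. The sources differ on the NFL. The design text with the counts derives it from sciatic nerve lysed by freezing and thawing, but the methods of the study name a commercial NFL protein and keep nerve lysate as a separate reagent. The methods also give a far lower concentration for co-cultures than the design text gives here. Which preparation and dose these samples received could not be settled, so an effect of NFL and of other nerve contents cannot be told apart. The mice of the study were female C57BL/6 and NOD-SCID animals aged 6 to 8 weeks. The study used the NOD-SCID mice as immunodeficient hosts of tumours, and the strain that gave the spleen cells is not named. Whether the 3 samples of a group were separate cultures or animals is not given in the sources used here. The p-values therefore measure the spread between these samples, which may be technical. In bulk RNA, fewer cells of a type and less RNA per cell cannot be told apart.

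The libraries held 15843045 to 24639756 counts. Levels are given as CPM, which are counts scaled for library size. The 7 markers of T cells were uneven. Median levels were 357 CPM for Trbc1, 56.9 for Trbc2, 53.5 for Cd3e and 44.9 for Cd247. The CD3 chains Cd3g and Cd3d stood at only 7.67 and 4.14 CPM, and Trac, the constant region of the alpha chain, at 1.60 CPM. The CD8 label had weak support, with Cd8a at 3.90 CPM and Cd8b1 at 1.27 CPM below Cd4 at 25.9 CPM, so the cells are called T cells here. Of 8 macrophage markers, 6 had 3 reads or fewer in every library, among them C1qa, C1qb, C1qc, Itgam and Csf1r. Their summed level was 24.7 to 27.4 CPM in control and 19.1 to 23.3 CPM in NFL libraries, nearly all of it Cd68. Of 3 natural killer markers, 2 were at 3 reads or fewer, and the sum, nearly all Klrb1c, was 29.9 to 33.1 CPM in control and 21.9 to 22.5 CPM in NFL libraries. B-cell markers summed to 2.65 to 3.13 CPM against 3.03 to 3.64 CPM, with 3 of 5 at 3 reads or fewer, and erythroid markers stayed below 0.244 CPM. The macrophage and natural killer sums were thus lower in the NFL libraries, in which the ribosomal protein genes were higher, and their part in the results was not tested.

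The ribosome is built from a small subunit that decodes mRNA and a large subunit that joins amino acids, and nearly every one of its proteins is made from its own gene in roughly matched amounts. Most of these mRNAs begin with a C followed by a run of pyrimidines, the 5′ terminal oligopyrimidine (TOP) motif, through which the growth-sensing kinase complex mTORC1 sets how strongly they are translated. T cells leave a resting state with a rise in ribosome production, which makes this gene group a common readout of growth in lymphocytes.

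To show the start of these transcripts, the 30 bases from 8 before to 22 after the annotated start were read from the RefSeq promoters (GRCm38.p6), which covered 66 of the 85 genes. A C followed by at least 4 further C or T, beginning between 5 bases before and 25 bases after the start on the transcribed strand, was present in 44 of 66 genes (66.7%), against 40.1% of 27025 genes with a promoter. On the other strand it was present in 33.3% against 47.4%. With its first base within 2 of the start, on the transcribed strand, the run was present in only 14 of 66 genes (21.2%), against 8.56% of 27025. The motif CCGGAAGT, the core of ETS factor sites, was found on either strand of the 300-base promoter in 18.2% of these genes against 4.31% of all, and AAGATGGC, the core of YY1 sites, in 9.09% against 3.19%. In the wider window, the run was present in 25 of 39 genes that rose with NFL (64.1%). It was present in 18 of 25 genes tested that did not pass the threshold (72.0%), a difference that was not tested. Capitals below mark the run. Rps9 (chr7:3704033-3704062, plus strand), Rps24 (chr14:24490670-24490699, plus strand), Rps26 (chr10:128626485-128626514, minus strand) and Rpl22l1 (chr3:28805500-28805529, plus strand) are shown because they were among the larger rises. Rps6 (chr4:86857346-86857375, minus strand) and Rpl15 (chr14:18270965-18270994, minus strand) are shown with runs of 10 and 17 bases. Other genes have longer runs, such as Rpl27a with 20 bases. Rpl28 (chr7:4792957-4792986, plus strand) is shown as a gene with a run at the start and hardly any difference between groups. Rps27 (chr3:90213627-90213656, minus strand) and its near-copy Rps27rt (chr9:114982718-114982747, minus strand) are shown as a pair.
Rps9: tgtCTCTCTTTgtctcgggcctgagttcgt
Rps24: tggggtCCTTCCTTgcgcgttgatatgatt
Rps26: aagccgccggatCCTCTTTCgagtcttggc
Rpl22l1: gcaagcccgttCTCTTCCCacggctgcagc
Rps6: agtcgggCCTCTTTTTCgtgacgcctccca
Rpl15: aaagCCTTCTTCCTTTCCTCTggcggcagc
Rpl28: tcgtgtCTCTCTTTCCgtctccggccgcca
Rps27: ctttcgCTCCTTTCCggcggtgacgacctc
Rps27rt: atcccttgCTTTCCggcggtgacgacctcc

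Ribosomal protein genes were slightly higher in T cells given the supernatant of NFL-treated macrophages. Of 83 genes that could be tested, 45 rose, none fell and 38 did not pass the threshold (edgeR quasi-likelihood test, adjusted p under 0.05). Over all 14082 genes tested, 3.47% rose and 3.53% fell. The sizes were small: the median log2 fold change of the 83 was 0.10, a level 7.49% higher, with quartiles of 0.07 and 0.13, against -0.001 over all genes tested. The 45 genes that rose did so by 5.29% to 17.7%. Among all 2655 genes with a mean of at least 100 CPM, a range that holds most ribosomal protein genes, 276 rose and 195 fell, with a median of 0.01. Rpl24 and Rpl36al were the only members tested with a negative value, and neither passed the threshold. At an unadjusted p under 0.05, a further 17 were higher and 0 were lower.

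In counts, the 85 genes took 4.81%, 4.68% and 4.76% of control replicates 1, 2 and 3, and 5.00%, 4.97% and 5.07% of NFL replicates 1, 2 and 3. Every NFL library lay above every control library, with means of 4.75% ± 0.069 and 5.01% ± 0.049 (SD, n = 3 each), a difference of 0.263 percentage points. The shift was spread over the core. Of 76 core genes, 61, 60 and 72 stood above their own mean over the 6 libraries in NFL replicates 1 to 3, and 24, 6 and 13 in control replicates 1 to 3. Control replicate 2, the smallest library, was the lowest, with a median deviation of -0.086 on the log2 scale, and NFL replicate 3 was the highest, with 0.075. In 46 of the 83 genes all NFL libraries were above all control libraries, and in 0 they were all below. Over all genes tested, the shares were 11.5% and 11.2%. Of the 2655 genes with a mean of at least 100 CPM, 604 were above and 391 below.

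**Figure D1:**
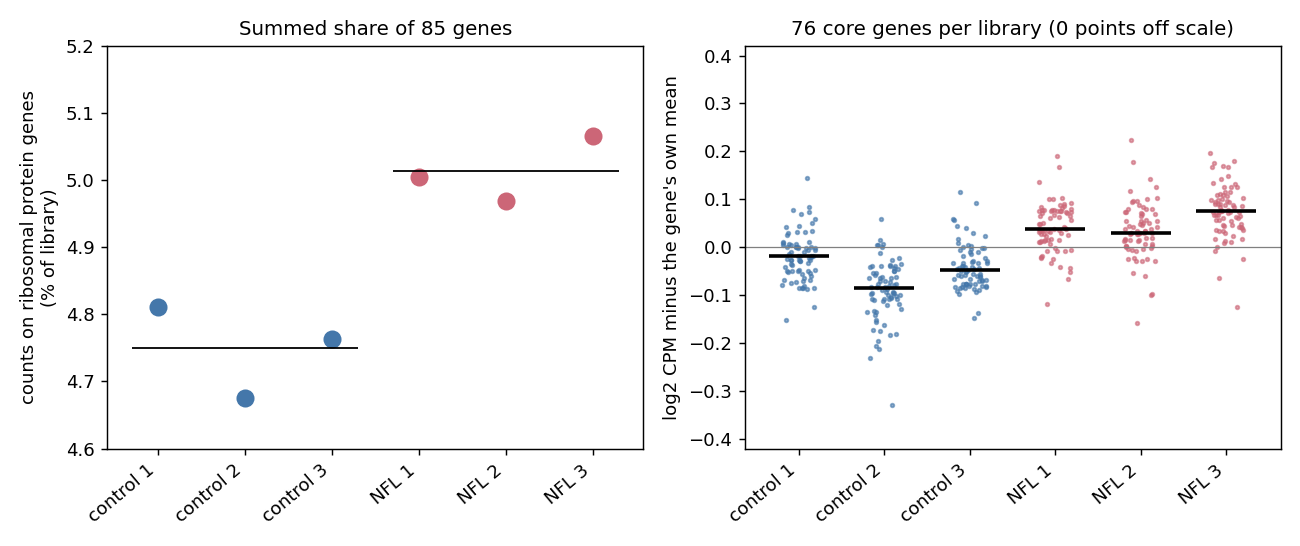
Left, the percent of each library's counts on the 85 ribosomal protein genes (vertical axis cut to 4.6 to 5.2%; lines, group means); right, log2 CPM of each of 76 core genes minus its own mean over the 6 libraries (points, genes; bars, medians). All 3 NFL libraries lie above all 3 control libraries in both panels, with core medians of 0.031 to 0.075 against -0.086 to -0.019.

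The count of rises depended on 1 library and on transcript length. Without NFL replicate 3, 17 genes passed the threshold, and the median log2 fold change was 0.09. Calls were fewer over all genes too in that fit, where 250 (1.74%) rose in place of 489 (3.47%). Without any other single library 35 to 45 did. When GC content and transcript length were corrected for by offsets in each library, 22 rose and the median was 0.069, and with length alone corrected for, 20 rose and the median was 0.062. Over all genes 3.23% and 3.60% rose in these fits. Ribosomal protein transcripts are short, with a median of 680 bases among those that rose. The other 2045 genes tested with a transcript of at most 1000 bases rose in 60 and fell in 26 cases, with a median of 0.04, and of these the 124 with at least 100 CPM rose in 23 and fell in 14 cases, with a median of 0.02. No ribosomal protein gene fell under any of these settings.

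**Figure D2:**
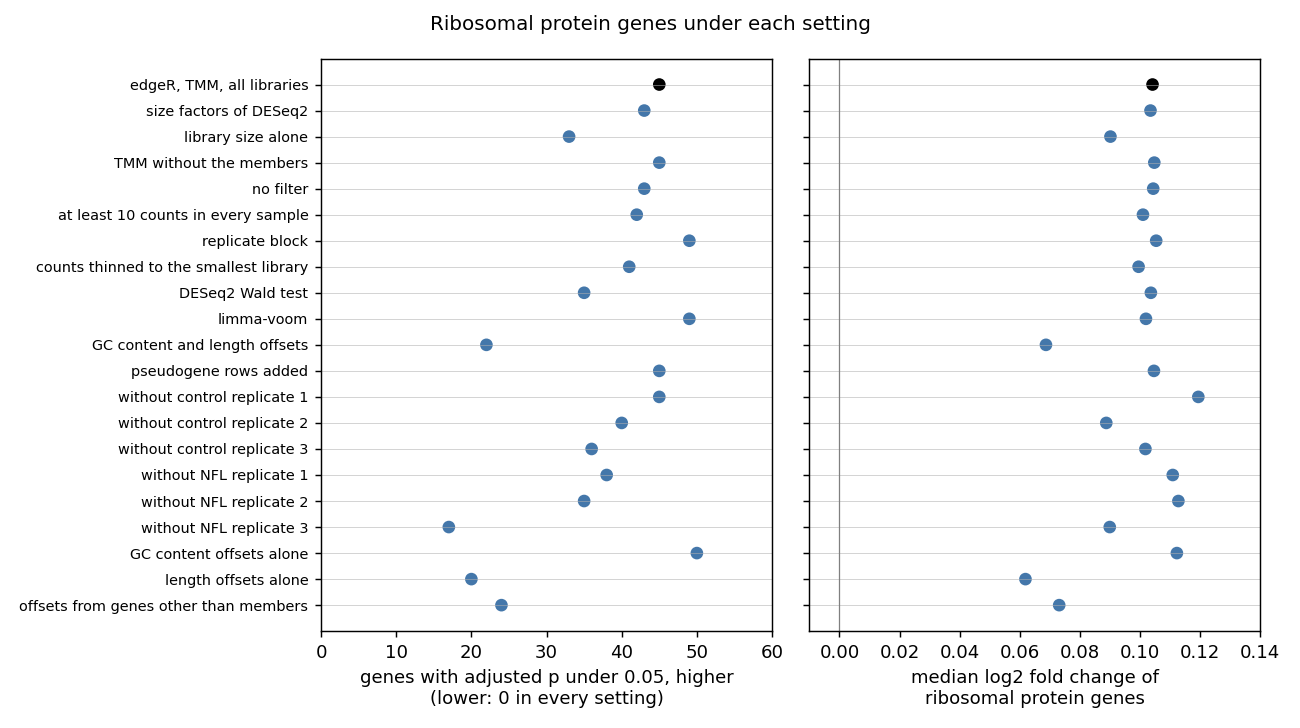
For each setting, the number of ribosomal protein genes past the threshold and higher with NFL (left) and the median log2 fold change of the genes tested (right), with the reported values in black. Counts run from 17 without NFL replicate 3 to 50 with GC content offsets, and medians from 0.062 to 0.12.

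The rises spread over both subunits. Of the core genes of the large subunit 29 of 46 rose, with a median log2 fold change of 0.11, and of the small subunit 13 of 30, with a median of 0.09. Whether the subunits differed was not tested. The larger rises among core genes were those of Rps26, Rps9, Rpl39, Rpl7, Rpl11, Rps24 and Rpl37a. Of all 45 genes that rose, 12 stayed past the threshold in each of 17 alternatives: Rpl7, Rpl7a, Rpl11, Rpl13, Rpl15, Rpl29, Rpl32, Rpl37a, Rpl39, Rps9, Rps24 and Rps26. Rps27l was a further gene that stayed past it with each library left out, and it lost the call with the offsets for GC content and length. Of the other genes named below, the number of these 17 alternatives in which the call held was 16 for Rpl10, 15 for Rpl5 and Rpl22l1, 14 for Rplp1, 12 for Rplp2 and Rps19bp1, 11 for Rps19 and Rps27, 10 for Rpl26, 9 for Rps2 and 7 for Rps6.

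**Figure D3:**
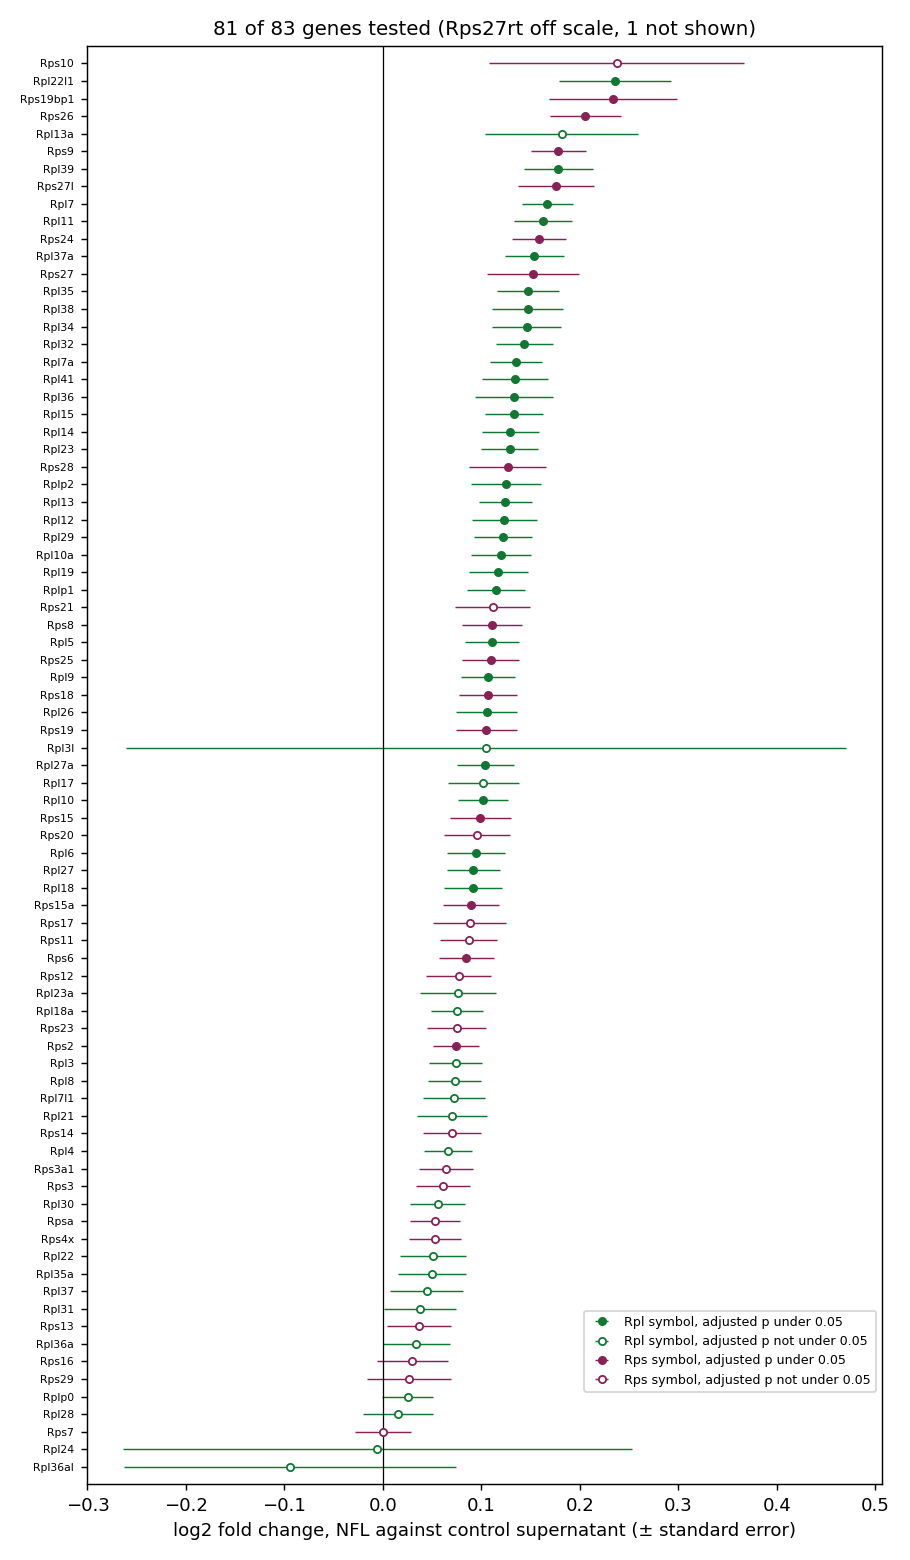
Log2 fold change of NFL against control (points) with its standard error (bars) for 81 of the 83 genes tested, in green for large-subunit and purple for small-subunit symbols and filled where the adjusted p was under 0.05. Rps27rt, with a log2 fold change of 0.78 ± 0.42 from few reads, is off scale, and 1 gene is not shown. All but Rpl24 and Rpl36al lie at or right of 0, and the filled points lie between 0.07 and 0.24.

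Rps26, a small-subunit protein at the exit of the mRNA channel, was at 256, 229 and 232 CPM in control replicates 1 to 3 and at 265, 273 and 290 CPM in NFL replicates 1 to 3. The groups did not overlap, and the log2 fold change was 0.21 ± 0.036 (SE; adjusted p = 5.8e-05). Rps9, a protein of the decoding region, was at 468, 463 and 468 CPM in control and 523, 532 and 528 CPM in NFL libraries, also without overlap (log2 fold change 0.18 ± 0.028, adjusted p = 8.9e-06). Rps24, which is needed to process the small-subunit rRNA, was at 787, 766 and 807 CPM in control and 879, 878 and 877 CPM in NFL libraries. Its NFL libraries differed by less than its control libraries, and it rose by 11.6% (adjusted p = 4.0e-05).

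In the large subunit, Rpl7 had 1063, 1043 and 1050 CPM in control and 1159, 1190 and 1193 CPM in NFL libraries. It had the smallest adjusted p of the group (6.8e-06) with a log2 fold change of 0.17 ± 0.026. Rpl39, a short protein that lines the exit tunnel for the growing chain, was at 271, 258 and 281 CPM in control and 308, 287 and 323 CPM in NFL libraries, 13.1% higher (adjusted p = 3.6e-04). Rpl37a, a zinc-finger protein of the large subunit, was at 407, 391 and 418 CPM against 448, 443 and 463 CPM, 11.2% higher (adjusted p = 3.6e-04). In none of these did a control library reach an NFL library.

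Rpl5 and Rpl11 bind 5S rRNA and, when ribosome assembly stalls, hold back Mdm2 and so stabilise p53. Rpl11 was at 534, 515 and 518 CPM in control and 558, 593 and 603 CPM in NFL libraries, a log2 fold change of 0.16 ± 0.030 (adjusted p = 1.2e-04). Rpl5 was at 706, 671 and 688 CPM in control and 740, 732 and 758 CPM in NFL libraries, 7.97% higher (adjusted p = 0.0068). Both rose without overlap of the groups. Of the transcript of Rpl5, 46.6% lies in exons of Fam69a on the other strand, and whether reads were counted by strand is not given in the sources used here.

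Rps6, the classical target of S6 kinase downstream of mTORC1, was at 747, 722 and 708 CPM in control and 766, 761 and 782 CPM in NFL libraries. Its log2 fold change of 0.08 ± 0.028 lay just past the threshold (adjusted p = 0.0485). Rps19, the gene most often mutated in Diamond-Blackfan anaemia, was at 278, 283 and 278 CPM against 305, 291 and 305 CPM, 7.56% higher (adjusted p = 0.0267). Rpl10, a late-joining protein near the catalytic centre, was at 1747, 1715 and 1764 CPM against 1886, 1821 and 1902 CPM, 7.32% higher (adjusted p = 0.0060). Rpl26, a further gene that stabilises p53, rose by 7.58% although its groups overlapped (486 to 536 CPM against 531 to 568 CPM, adjusted p = 0.0271).

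The stalk of the large subunit, which recruits elongation factors, is formed by Rplp0 with Rplp1 and Rplp2. Rplp1 was at 467, 440 and 441 CPM in control and 488, 477 and 495 CPM in NFL libraries (8.27% higher, adjusted p = 0.0092). Rplp2 was at 285, 275 and 275 CPM in control and 277, 320 and 313 CPM in NFL libraries (9.07% higher, adjusted p = 0.0191), with NFL replicate 1 inside the control range. Rplp0, often used as a reference gene for RT-qPCR, was at 1658, 1661 and 1599 CPM in control and 1617, 1708 and 1679 CPM in NFL libraries. Its groups overlapped, and the log2 fold change of 0.03 ± 0.026 did not pass the threshold (adjusted p = 0.67).

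A further set of core genes did not pass the threshold. Rpsa, also known as the laminin receptor, was at 1888 to 1956 CPM in control and 1946 to 2056 CPM in NFL libraries (log2 fold change 0.05, adjusted p = 0.247). Rps3, which sits at the mRNA entry and also takes part in DNA repair, had a log2 fold change of 0.06 (adjusted p = 0.20), and Rps14, a protein of the small-subunit platform, one of 0.07 (adjusted p = 0.159). The smallest differences among core genes at 100 CPM per kb or more, chosen after their values were seen, were those of Rps7 and Rpl28. Rps7 was at 817, 751 and 798 CPM in control and 808, 775 and 785 CPM in NFL libraries, and Rpl28 at 600, 508 and 515 CPM against 559, 533 and 550 CPM. Control replicate 1 was the highest of all 6 libraries for both genes. A difference from the genes that rose was not tested.

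Paralogues stand beside several core genes, and some of these pairs differed in their values. Rpl22, an RNA-binding protein that developing alpha-beta T cells require, was at 302, 272 and 272 CPM in control and 291, 293 and 294 CPM in NFL libraries, and its log2 fold change of 0.05 ± 0.034 did not pass the threshold. Its paralogue Rpl22l1 was at 47.1, 46.8 and 47.9 CPM in control and 59.3, 53.5 and 54.4 CPM in NFL libraries. The groups of Rpl22l1 did not overlap, and its log2 fold change of 0.24 ± 0.057 was the largest among the genes that rose (adjusted p = 0.0049). The difference between both genes was not tested.

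Rps27 was at 119, 106 and 130 CPM in control and 127, 127 and 141 CPM in NFL libraries (11.2% higher, adjusted p = 0.0326), with control replicate 3 inside the NFL range. Rps27l, a paralogue that p53 induces, was at 121, 119 and 116 CPM in control and 129, 136 and 137 CPM in NFL libraries (13.0% higher, adjusted p = 0.0018), without overlap. Rps27rt, a near-copy of Rps27, was at 0.314 to 0.901 CPM in control and 0.745 to 1.28 CPM in NFL libraries (adjusted p = 0.309). As 98.4% of the 100-base windows of the Rps27 transcript also occur in Rps27rt, reads of both genes cannot be told apart over that stretch, and the values of both are uncertain. Rps27l shares no such window with another gene.

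Rpl7 rose, whereas Rpl7l1, a homologue that acts in ribosome assembly, was 5.14% higher and did not pass the threshold (236 to 243 CPM against 246 to 254 CPM, adjusted p = 0.182). Rpl3, a protein that reaches into the catalytic centre, was at 1077, 1127 and 1057 CPM in control and 1144, 1130 and 1159 CPM in NFL libraries (adjusted p = 0.0867). Its muscle paralogue Rpl3l was near the floor, at 0.690 to 1.95 CPM. The testis paralogues Rpl10l and Rpl39l failed the filter on low counts: Rpl10l had 1 read in all, and Rpl39l had 0 reads in each control library and 3, 2 and 1 reads in the NFL libraries. Rpl36a was at 259 to 286 CPM in control and 267 to 294 CPM in NFL libraries (adjusted p = 0.66), and Rpl36al at 4.63 to 6.21 CPM and 4.72 to 5.46 CPM. Rps19bp1, which encodes a regulator of SIRT1 that binds Rps19, was at 38.9, 35.5 and 33.6 CPM in control and 42.9, 42.6 and 41.6 CPM in NFL libraries (17.6% higher, adjusted p = 0.0169).

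Levels between genes were compared as CPM per kb of transcript, averaged over the 6 libraries. The core genes had a median of 724 CPM per kb. The highest were Rps2, a protein at the mRNA entry, with 2929, Rpl10 with 2260 and Rps4x, the X-linked copy of its family, with 1616 CPM per kb. Of these, Rps2 rose by 5.29% (adjusted p = 0.0417, 2824 to 2885 CPM against 2995 to 3002 CPM), and Rps4x did not pass the threshold (1522 to 1567 CPM against 1565 to 1671 CPM, adjusted p = 0.264). The order of the core genes by CPM, not divided by length, hardly differed between libraries. Spearman rho was 0.994 to 0.996 for each pair of libraries (n = 76 genes). Each gene has the same length and base composition in every library. Within a group, the coefficient of variation of a core gene had a median of 3.27% in control and 3.01% in NFL libraries.

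At the low end stood 3 core genes below 100 CPM per kb: Rpl24 with 3.37, Rps10 with 17.1 and Rpl13a with 24.2. The other 73 core genes ranged from 105 to 2929 CPM per kb, with a median of 768. The lowest of them, Rps20, has an annotated principal transcript of 3706 bases, which lowers its value per kb. For proteins that every ribosome carries, these 3 values were 31.7 to 228 times below that median. In GENCODE M21, 71.5% of the Rpl24 transcript lies in exons of the same-strand gene Gm28037, 91.6% of Rps10 in RPS10-NUDT3 and 59.3% of Rpl13a in Gm45713. Rpl36al, with 63.1% of its transcript in exons of Gm49383, was also low, at 9.84 CPM per kb. All 4 overlapping genes were listed at 0 reads in every library. Among the other 81 genes the largest same-strand overlap was that of Rpl19, with 10.7%. How reads in overlaps were counted is not given in the sources used here, and the part of the overlap in these low values was not tested.

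**Figure D4:**
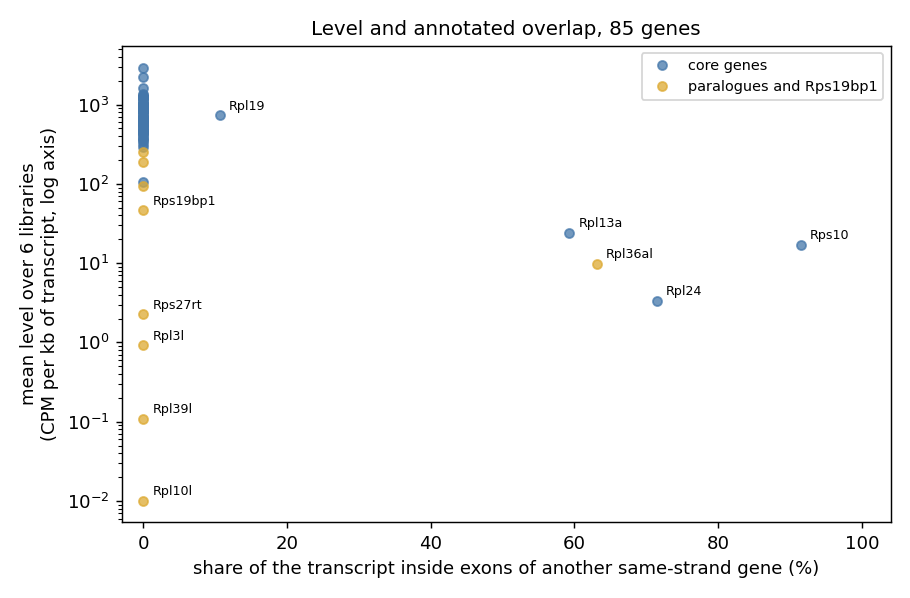
Mean level of each of the 85 genes (vertical, CPM per kb on a log axis) against the percent of its transcript that lies in exons of another gene on the same strand (horizontal), with core genes in blue and the other 9 in yellow. The 4 genes with over 50% overlap lie between 3.37 and 24.2 CPM per kb, and the core genes without such overlap between 105 and 2929.

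Reads per library were 33 to 61 for Rpl24, 106 to 214 for Rps10 and 348 to 622 for Rpl13a. Rpl24, a protein of the bridge between subunits, was at 1.99, 2.38 and 2.497 CPM in control and 2.05, 2.73 and 2.04 CPM in NFL libraries, and no difference was detectable at this depth (adjusted p = 0.995). Rps10, a protein of the small-subunit head, was at 7.97, 6.65 and 8.76 CPM against 9.13, 9.65 and 9.06 CPM (log2 fold change 0.24 ± 0.13, adjusted p = 0.32). Rpl13a, known also as a translational silencer after interferon-gamma, was at 25.3, 21.8 and 23.9 CPM against 26.96, 26.6 and 27.4 CPM (log2 fold change 0.18 ± 0.078, adjusted p = 0.168). In Rps10 and Rpl13a the groups did not overlap, but neither passed the threshold.

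Sequence shared with other genes limits other values. Of the 76 core genes, 71 share at least 1 window of 100 bases with another annotated gene on either strand. In 34 of them over 50% of the windows are shared. Genes that overlap the member are included, such as RPS10-NUDT3 for Rps10, and the types of the other genes were not counted. Rpl10 shares 91.6% with Rpl10-ps3, which had 25 reads in all libraries, and Rps6 shares 83.6% with Rps6-ps4, which had 501. Rps3, Rps21, Rpl22 and Rpl32 are among the core genes that share none, and Rpl3l, Rpl10l, Rpl39l, Rps19bp1 and Rps27l share none either. The log2 fold change of the core genes had a Spearman rho of 0.05 with the shared percent, -0.12 with transcript length, 0.10 with GC content and -0.22 with the level per kb (n = 76 genes, given as a description).

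Other genes, most of them tied to translation, were read from lists. A list of 28 further genes was named for the TOP motif, which was not checked in them here. They are called TOP translation genes, although not all of them act in translation. Of these 28, 9 rose and 1 fell, with a median log2 fold change of 0.08. Npm1, a nucleolar protein that helps assemble ribosomes, rose from 1852, 1853 and 1953 CPM to 2115, 2100 and 2121 CPM (log2 fold change 0.16 ± 0.025, adjusted p = 6.3e-06). Rps27a and Fau, which encode ribosomal proteins as fusions with ubiquitin or a ubiquitin-like protein, rose by 9.84% (adjusted p = 0.0052) and 9.33% (adjusted p = 0.0159). Eef1e1, a part of the tRNA synthetase complex, had the largest rise of the list with 16.5% (adjusted p = 2.9e-04). The gene that fell was Vim, an intermediate filament protein, at 903, 847 and 810 CPM in control and 783, 803 and 808 CPM in NFL libraries (log2 fold change -0.10, adjusted p = 0.0326). Eef1a1, the elongation factor with the TOP motif, was at 6055 to 6246 CPM against 6261 to 6442 CPM and did not pass the threshold (adjusted p = 0.297).

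Non-coding hosts of small nucleolar RNAs carry the same motif without a protein product. Of 14 in the list, 10 could be tested, and 5 of these rose and 0 fell, with a median log2 fold change of 0.20. Gas5 was at 207, 204 and 211 CPM in control and 232, 237 and 245 CPM in NFL libraries (14.6% higher, adjusted p = 2.6e-05). Zfas1 was at 42.02, 39.4 and 46.5 CPM against 50.4, 53.0 and 50.4 CPM (19.7% higher, adjusted p = 0.0037). Snhg6 rose by 0.34 on the log2 scale (adjusted p = 0.0325) and Snhg1 by 15.1% (adjusted p = 0.0097).

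Of 29 initiation factors tested, 8 rose and 0 fell, with a median of 0.07. Eif5a, a factor that helps ribosomes past stalling sequences, was at 899, 890 and 857 CPM in control and 1004, 1058 and 1040 CPM in NFL libraries (17.3% higher, adjusted p = 1.4e-08). Eif2s1, the subunit of eIF2 on which stress kinases act, rose by 13.9% (adjusted p = 1.1e-05), Eif2b3, a subunit of its exchange factor, by 18.6% (adjusted p = 0.0054), and Eif6, which keeps free large subunits from joining, by 11.7% (adjusted p = 0.0031). Of 17 genes of mTORC1 and its TOP effectors, 2 rose and 1 fell, with a median of 0.02. Those that rose were Akt1s1, an inhibitory subunit of mTORC1 (21.6%, adjusted p = 0.0282), and Larp4, a poly(A)-binding protein (6.94%, adjusted p = 0.0282). The one that fell was Eif4ebp2, a translational repressor that mTORC1 inactivates, at 220, 229 and 217 CPM against 205, 206 and 204 CPM (adjusted p = 0.0232). Of 77 mitochondrial ribosomal protein genes tested, 2 rose, Mrpl35 and Mrpl45, and 0 fell, with a median of 0.07. These counts stand beside 3.47% of all genes that rose and 3.53% that fell, and no difference between lists was tested. The list counts also depended on single libraries. Without NFL replicate 3, 4 of the TOP translation genes, 2 of the non-coding hosts, 1 of the mitochondrial genes and 0 of the mTORC1 list rose, and Vim and Eif4ebp2 lost their calls. The rises in the mTORC1 list were also lost without control replicate 1, control replicate 3 or NFL replicate 2.

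**Figure D5:**
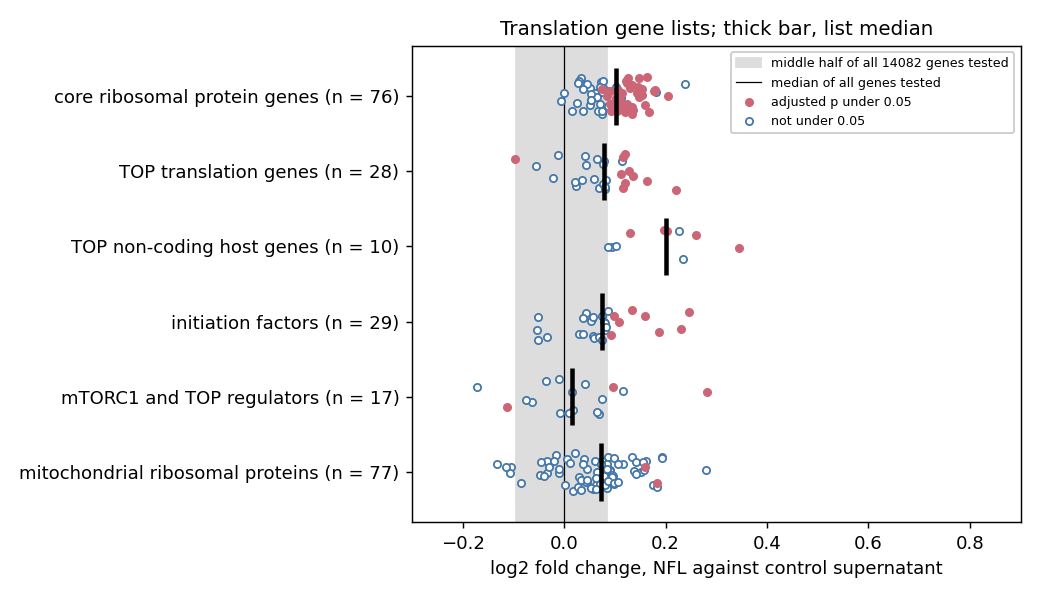
Log2 fold change of each gene tested in 6 lists (filled red, adjusted p under 0.05; open blue, not) with the list median as a thick bar; the grey band spans the quartiles of all 14082 genes tested. The medians run from 0.02 for mTORC1 and TOP regulators to 0.20 for the non-coding host genes, with 0.10 for the core ribosomal protein genes.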

How the data were processed

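RNA of 6 samples of mouse T cells, 3 per group, was sequenced from poly(A)-selected libraries. The authors deposited raw counts of reads on 55401 genes, not normalized, with 1 column per sample. The processing notes name the build GRCm39, R 4.2.1 and limma 3.54.2. Not given in the sources used here are the aligner, the counting program, the annotation and whether strand was used. Columns that matched no sample numbered 0. Symbols were found for 55141 identifiers. Transcript lengths and exon overlaps came from GENCODE M21 (GRCm38), where all 85 versioned identifiers were identical, using the shortest complete principal transcript of each gene.

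Genes were kept with filterByExpr (minimum count 10, minimum total count 15) and tested with edgeR 4.0.16 in R 4.3.3 (TMM, glmQLFit, glmQLFTest) with Benjamini-Hochberg adjustment over all 14082 genes and a threshold of 0.05. CPM values used TMM-scaled library sizes, and deviations were taken on log2(CPM + 0.5). Levels of the cell type markers, and the floor given below, used library totals without TMM. The common dispersion of 0.0012 equals a biological coefficient of variation of 3.48%. A count of 3, taken as the floor, is 0.122 to 0.189 CPM. With 3 against 3 samples, the smallest p of an exact two-sided permutation test is 0.1. On simulated counts of 13899 genes for this comparison, 12 of 50 genes changed by 0.15 on the log2 scale were recovered, 42 of 50 at 0.3, and 50 of 50 at 0.6 and at 1, with 12 false calls.

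The members and lists were chosen with earlier results of these data known. Genes were named by a rule: textbook members, paralogue pairs, the 10 largest rises and falls past the threshold, the extremes of level per kb, and up to 4 called genes per list (Larp4, Eef1a1, Mrpl35 and Mrpl45 included for completeness). Rps10, Rps7, Rpl28 and the 12 genes that passed in every setting were named after their values were seen. Alternatives were other scalings, filters, tests (DESeq2 1.42.0, limma-voom 3.58.1), a replicate block, thinning, added pseudogene counts, offsets for GC content and length, and each library left out. Separate offsets, and all settings for the lists, were added after seeing the data. Figures were drawn with matplotlib 3.10.9. A withheld single gene is not reported here, although counts over the group include it.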

Additional observations from a re-analysis of the deposited data

How the results depend on the processing

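Ribosomal protein genes past the threshold and higher with NFL numbered 33 to 49 under the other scalings, filters, tests, thinning and added pseudogene counts, and 0 fell under any alternative. The replicate block gave 49 genes. Correlations of deviations were -0.021, 0.011 and 0.039 between control and NFL samples of the same number, and -0.053 to 0.038 between those of different numbers. With 3 samples per group, these values cannot settle whether the samples were paired. Offsets for GC content and length gave 22 genes and a median log2 fold change of 0.069. Chosen after seeing the data, length offsets alone gave 20 genes and a median of 0.062, GC content offsets alone 50 genes and a median of 0.11, and both with trends from other genes only 24 genes and a median of 0.073. Beyond this, the cause was not tested. With each library left out, the count ranged from 17 (without NFL replicate 3) to 45, the median from 0.09 to 0.12 and the difference in summed share from 0.226 to 0.294 percentage points.

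Of the 45 genes that rose, 0 changed direction, and of the others tested 12 did, none of them past the threshold. With both offsets, Rpl22 (-0.016), Rpl30 (-0.00015), Rpl31 (-0.0080), Rpl35a (-0.013), Rpl36a (-0.035), Rps29 (-0.029) and Rps7 (-0.018) turned negative. Rps7, at 0.0002 as reported, was at -0.00048 with DESeq2 size factors, -0.014 with library size alone, -0.00086 with at least 10 counts in every sample, -0.0055 when thinned, -0.00046 with DESeq2 and -0.0039 with limma-voom. With each library left out, the log2 fold change ranged from -0.16 to 0.069 for Rpl24, -0.024 to 0.10 for Rpl28, -0.034 to 0.079 for Rpl31, -0.0050 to 0.11 for Rpl35a, -0.00030 to 0.073 for Rpl36a, -0.19 to 0.010 for Rpl36al, -0.15 to 0.65 for Rpl3l, -0.032 to 0.085 for Rps16, -0.030 to 0.11 for Rps29 and -0.030 to 0.028 for Rps7.

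Of the other lists, TOP translation genes that rose numbered 14 with limma-voom and 4 to 11 with each library left out, and Vim, the 1 that fell, was lost (0 genes) with DESeq2, with both offsets (whichever genes gave the trend), with GC content offsets alone, and without control replicate 1 or any NFL replicate. Non-coding hosts that rose numbered 3 with DESeq2 and 2 to 5 with libraries left out. Those of the mTORC1 list numbered 1 with library size alone or GC content offsets alone and 0 to 2 with libraries left out, and the 1 that fell was lost (0 genes) with GC content offsets alone and with 5 of the 6 libraries left out in turn. Mitochondrial genes that rose numbered 1 with library size alone, thinning or DESeq2, 4 with GC content offsets alone and 1 to 3 with libraries left out. In simulated counts, 12 of 50 changes of 0.15 were recovered, so a gene that did not pass the threshold is not shown to be unchanged. Recovery was not split by level, and most ribosomal protein genes have high counts, so the rate for them may differ.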

Other observations

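The 289 pseudogene symbols of the family held few reads: 93 had more than 3 reads in any library, and together they took 0.0071% to 0.0097% of the counts, against 4.68% to 5.07% for the 85 coding genes. Adding the reads of these pseudogene symbols to the parent gene of the same name left the number of genes past the threshold at 45. Genes under other names that share windows were not added. Among them, Gm10076 had 5402 reads over the 6 libraries, against 31596 for Rpl41, with which it shares windows. Rps2-ps10, a copy of the gene with the highest level per kb, had 1331 reads over the 6 libraries, and Gm15500, which shares windows with Rpl5, had 3773.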
